A study of Drosophila melanogaster with 12 samples.

Results

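Control flies of Drosophila melanogaster were compared after 12 h on paraquat and at 0 h, in 4 of the 12 RNA-seq libraries of a study of oxidative stress (OS) in fly heads. The members were chosen by their labels alone, as the 2 control libraries at 12 h and the 2 control libraries at 0 h. All of the libraries came from pools of 200 male heads from flies aged 5 to 9 days, reared in a cycle with 12 h of light. The control line was a precise transposon excision in the same genetic background as the G9aDD1 mutants, which make up the other genotype of the series. Flies at 0 h had not been exposed, and flies at 12 h had been kept on food with 50 mM paraquat. Unexposed flies from the later hour are not among the libraries analysed here, so the hours of exposure and the time of day changed together, and their contributions to any difference cannot be told apart. Heads were sieved whole, so each library pools brain, eyes, antennae, muscle, fat body and blood cells, and in such bulk RNA fewer cells of a type and less RNA per cell cannot be told apart.

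Paraquat accepts electrons inside cells and passes them to oxygen, which produces superoxide. Animal cells remove superoxide and the peroxides that follow it with dismutases, catalase and peroxiredoxins, conjugate the damaged molecules to glutathione or sugars, and break down oxidised proteins in the proteasome. In flies many of the genes for these steps are controlled by the transcription factor cnc, the relative of mammalian Nrf2, and the same heads also carry a strong circadian rhythm driven by Clk and cyc in photoreceptors, glia and clock neurons.

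The 4 libraries held between 21872478 and 41393992 reads on genes, and the 0 h libraries were the deeper ones (41393992 and 32325896 against 21872478 and 22424608), so depth also moved with time. Values are read counts that had been normalized for library size, and 10530 genes with a mean of at least 10 over the 12 libraries were tested. The label of the tissue was checked on markers, and head transcripts were present in all 4 libraries, for example nSyb, a synaptic vesicle protein, with 54013 and 57648 normalized counts at 0 h. The summed level of 25 digestive proteases was at most 60.6, with 9 of them at 0 in the 4 libraries, and that of 8 testis genes at most 7.18, with 3 at 0. The duplicates at 12 h were further apart than those at 0 h (58.8 against 32.0 as Euclidean distance over the log2 values of all tested genes). Each 12 h duplicate lay nearer to a 6 h library (43.2 for both). The median gene was closer between the 12 h duplicates, with an absolute log2 gap of 0.07 against 0.11 at 0 h. Genes at least 1.5-fold apart made up 4.78% at 12 h and 3.80% at 0 h. Replicate 2 at 12 h held 13312 normalized counts on the ribosomal RNA pseudogene 18SrRNA-Psi:CR41602, against 94.5 in replicate 1 and 63.8 and 684 at 0 h. Replicate 1 at 12 h held 2483 counts of CG16826 and 589.8 of whe, both of which were at 0 in replicate 2. The cause of these differences was not tested, and leaving out replicate 1 or replicate 2 at 12 h gave 1041 and 1008 changed genes in place of 1071. G9a itself had 2740.1 and 3087 counts at 0 h and 2779 and 2780.0 at 12 h in controls (log2 change -0.07 ± 0.06 (SE), adjusted p = 0.4). With 2 libraries in each group an exact permutation test on a single gene cannot go below p = 0.333, so every adjusted p below comes from a limma fit that shares the spread across all genes and all 12 libraries.

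After 12 h, 1071 of the 10530 genes differed from 0 h by at least 1.5-fold at an adjusted p of at most 0.05, which is 10.2% of the genes tested. Of these, 770 (7.31%) were higher and 301 (2.86%) were lower. At least 4-fold changes were more often upward, with 75 genes higher (0.712%) and 17 lower (0.161%). When each library was centred on its own median gene, which shifted the median change of all genes by -0.10 on the log2 scale, 608 genes were higher and 425 lower. The median change over all tested genes was 0.00. The 0 h and 12 h libraries did not overlap for any of the 1071 genes, but this was also so for 66.6% of all tested genes, so that property alone says little about a gene.

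Of the 10 largest increases, 6 belonged to the families that modify foreign compounds. GstD5 and GstD2 encode glutathione S-transferases of the delta class. GstD2 had 42.1 and 45.1 normalized counts at 0 h and 3741 and 3173 at 12 h, a 77.3-fold difference (log2 change 6.27 ± 0.17 (SE), adjusted p = 9.72e-10). GstD5 rose from 8.29 and 5.02 to 750.1 and 488 (log2 change 6.34 ± 0.23 (SE), adjusted p = 8.73e-09). The largest changes were chosen among genes whose 0 h and 12 h libraries did not overlap, so the gap between the groups adds nothing to these calls. Ugt37A2, a UDP-glycosyltransferase, was almost absent at 0 h, with 1 read in the 2 libraries, and reached 64.6 and 72.2 at 12 h, a ratio of 189 with a 95% interval from 33.3 to 7538 that covers counting error only. Cyp4e3, a cytochrome P450, was already present at 0 h with 1227 and 1608 and climbed to 27640.2 and 24742 (log2 change 4.22 ± 0.16 (SE), adjusted p = 1.56e-08). The 12 h duplicates of Cyp4e3 were close together. Ldh, the lactate dehydrogenase that interconverts pyruvate and lactate, rose from 183 and 186 to 3623 and 2995 (log2 change 4.15 ± 0.13 (SE), adjusted p = 3.40e-09). The same set held GstD4 (log2 change 4.35), Ugt37E1 (4.16), dy, which encodes a membrane protein of the cuticle-forming surface (4.59), and the uncharacterised CG4269 (4.82) and CG43402 (4.27).

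The 10 largest decreases were of a more mixed kind. The phu gene fell from 1343 and 1051 at 0 h to 34.7 and 26.8 at 12 h (log2 change -5.24 ± 0.30 (SE), adjusted p = 3.08e-07). Jhe, the esterase that inactivates juvenile hormone, went from 155 and 155 to 8.37 and 5.82 (log2 change -4.28 ± 0.25 (SE), adjusted p = 3.08e-07). The decreases too were chosen among genes whose 0 h and 12 h libraries did not overlap. Clk, the activator at the centre of the circadian clock, declined from 1592 and 1709 to 154 and 165 (log2 change -3.36 ± 0.11 (SE), adjusted p = 3.85e-09). The secreted protein to (takeout), whose transcript follows the clock and feeding, dropped from 43742 and 36033 to 6919 and 7068 (log2 change -2.51 ± 0.29 (SE), adjusted p = 6.08e-05). That its groups lie apart likewise follows from the choice. Besides these, 3 UDP-glycosyltransferases fell, namely Ugt302E1 (log2 change -3.79), Ugt35E1 (-3.76) and Ugt35E2 (-3.02), together with the uncharacterised CG34134 (-2.83). NT1, a neurotrophin-like ligand, had 40 reads in the 0 h libraries and 1 read at 12 h, a ratio of 24.5 with a 95% counting interval from 4.16 to 992. CG32371 had 33 reads and 1 read, a ratio of 20.2 (95% interval 3.39 to 823). Ugt35E1 rested on few reads too, 99 at 0 h and 3 at 12 h, a ratio of 20.2 (95% interval 6.72 to 99.8).

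**Figure D1:**
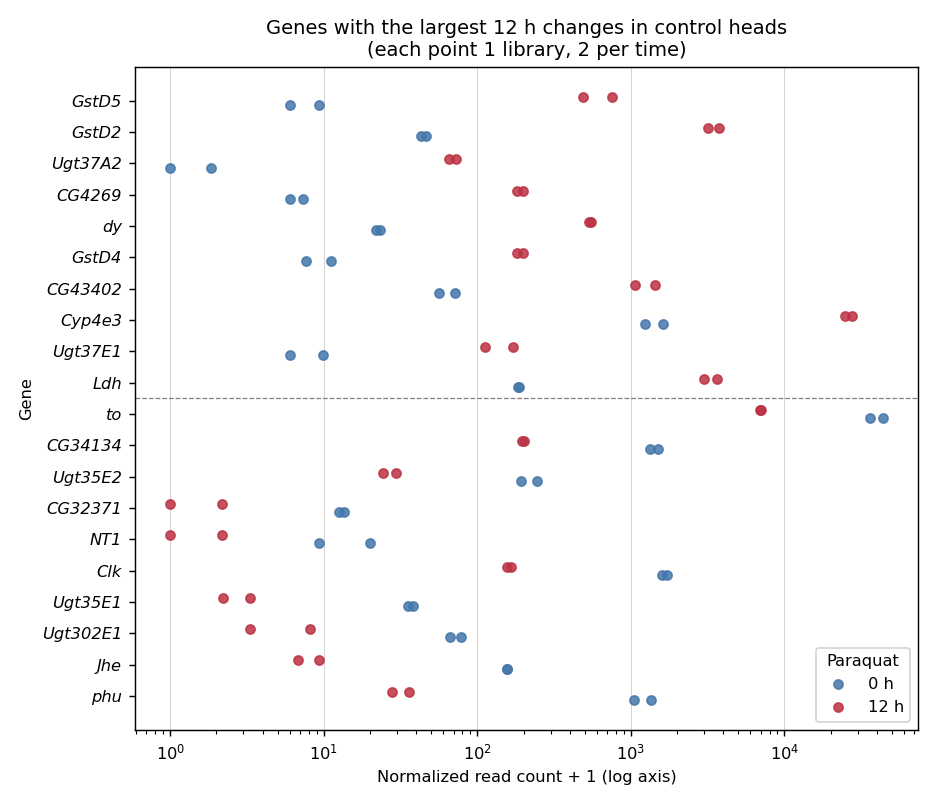
Normalized read count plus 1 on a log axis for the 10 genes with the largest increases (above the dashed line) and the 10 with the largest decreases after 12 h in control heads; each point is 1 library, with 2 at 0 h and 2 at 12 h. The 0 h and 12 h points of every gene lie apart because only such genes were chosen, and GstD2 moves from 42.1 and 45.1 to 3741 and 3173.

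The detoxification families were examined next, gene by gene. Of 33 tested glutathione S-transferases, 19 rose, 1 fell and 13 were not called (60.6% called, against 10.2% of all tested genes). Their median log2 change was 0.84. In the delta class, GstD1 (log2 change 1.95), GstD3 (2.17), GstD6 (3.07), GstD9 (1.72) and GstD10 (1.42) rose as well as GstD2, GstD4 and GstD5. In the epsilon class GstE7 went from 319 and 288 to 4027 and 3766 (log2 change 3.68 ± 0.20 (SE), adjusted p = 1.62e-07), and GstE8 (log2 change 2.22) and GstE4 (2.17) also rose. GstE2 was the single member that fell, from 487 and 437 to 303 and 270.1 (log2 change -0.69). Neighbouring genes of these classes are similar in sequence, and short reads that match several copies may have been lost or shared between them.

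Cytochrome P450 enzymes oxidise foreign and endogenous compounds. Among 73 tested members 23 rose, 3 fell and 47 were not called (35.6% called, against 10.2% of all tested genes). The median log2 change was 0.36. After Cyp4e3 the strongest were Cyp309a1, from 719 and 629 to 3872 and 3919 (log2 change 2.53 ± 0.14 (SE), adjusted p = 2.48e-07), and Cyp6d5, from 2202 and 2354 to 11289 and 10815 (log2 change 2.28 ± 0.07 (SE), adjusted p = 3.18e-09). Cyp28a5 had 1278 and 1328 at 0 h and 6476 and 5473 at 12 h (log2 change 2.19 ± 0.14 (SE), adjusted p = 6.76e-07). The 3 that fell were Cyp4aa1 (log2 change -0.94), Cyp6v1 (-0.85) and Cyp6t1 (-0.61). The UDP-glycosyltransferases, which attach sugars to small molecules, moved in both directions. Of 25 tested, 10 rose and 5 fell (60% called, against 10.2% of all tested genes), with changes between -3.79 and 5.68. Related names can be set side by side, with Ugt37A2, Ugt37A3 and Ugt37E1 higher by 5.68, 4.14 and 4.16 and Ugt35B1, Ugt35E1 and Ugt35E2 changed by -2.11, -3.76 and -3.02. Ugt35C1, in contrast, rose (log2 change 1.74).

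Of 14 tested enzymes that remove reactive oxygen species, 5 rose (35.7%, against 10.2% of all tested genes called), none fell and the median log2 change was 0.22. Catalase (Cat), which splits hydrogen peroxide, increased from 4129.9 and 3755 to 9725 and 9412 (log2 change 1.28 ± 0.08 (SE), adjusted p = 4.93e-07). Thioredoxin reductase (Trxr1), which in flies also takes over the task of glutathione reductase, increased from 4513 and 3874 to 7890.2 and 7638 (log2 change 0.89 ± 0.08 (SE), adjusted p = 1.12e-05). These groups did not overlap, as for all 1071 called genes, and for both genes the gap between the groups was several times the gap between duplicates. The peroxiredoxins Prx6c, Prx6b and Prx2 rose by 1.58, 1.16 and 0.78 on the log2 scale, while Prx3 and Prx4 had changes of -0.04 and -0.05 and were not called. The superoxide dismutases were not called either. Sod1, the cytosolic enzyme, had 6537 and 5752 at 0 h and 7214 and 7406 at 12 h (log2 change 0.25), and Sod2, the mitochondrial enzyme, had 3681 and 3395 and 3008 and 3089.7 (log2 change -0.21). Prx6b and Prx6c are close copies, so their reads may be shared.

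In the cnc pathway and the synthesis of glutathione, 2 of 11 genes rose and none fell (18.2% called, against 10.2% of all tested genes, median log2 change 0.24). The adaptor ref(2)P, which carries ubiquitinated protein to autophagosomes and is the fly p62, went from 5782 and 5876 to 19648 and 17654 (log2 change 1.68 ± 0.07 (SE), adjusted p = 2.41e-08). Gclm, the modifier subunit of the enzyme that limits glutathione synthesis, rose from 1383 and 1143 to 2555 and 2575 (log2 change 1.03 ± 0.10 (SE), adjusted p = 1.02e-05). Its catalytic partner Gclc had a log2 change of 0.54 and cnc itself one of 0.50, both under the 1.5-fold limit, and the inhibitor Keap1 had one of 0.03. The 3 enzymes that supply NADPH in this list, Zw, Pgd and Men, had changes of 0.10, -0.13 and -0.10. In the autophagy list ref(2)P was the 1 gene called of 20 (5.00%, against 10.2% of all tested genes), and the median of that list was 0.07.

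Most proteasome genes rose. Of 35 tested subunits and related copies, 30 rose and none fell (85.7% called, against 10.2% of all tested genes). The median log2 change was 0.84, against 0.00 over all tested genes. In the catalytic core, Prosalpha6 increased from 706 and 669.6 to 1868 and 1773 (log2 change 1.40 ± 0.08 (SE), adjusted p = 1.91e-07) and Prosbeta4 from 614 and 635 to 1567 and 1455 (log2 change 1.27 ± 0.08 (SE), adjusted p = 6.68e-07). In the regulatory cap, which recognises and unfolds substrates, Rpn11 rose by 1.07 and Rpn3 by 0.96 on the log2 scale. The members that were not called were Rpn8 (0.41), Rpt4 (0.54), Rpt6 (0.54) and the copies Rpt4R (0.40) and Rpt3R (-0.32). Rpt3R was the only member with a negative change. With each library centred on its median gene, 25 members were called and the median of the list was 0.73.

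The other gene groups of protein synthesis and folding moved less. The CCT chaperonin had 42.9% of its tested subunits called, against 10.2% of all tested genes. Of 7 CCT chaperonin subunits, which fold actin and tubulin, 3 rose (median log2 change 0.53), but none of the 7 was called with median-centred libraries or without replicate 2 at 0 h, 1 was called without replicate 1 at 12 h and 5 without replicate 1 at 0 h. Of 18 heat shock proteins and co-chaperones 2 were called (11.1%, against 10.2% of all tested genes), l(2)efl, a small heat shock protein, from 1027 and 1069 to 2058 and 2056 (log2 change 0.97 ± 0.11 (SE), adjusted p = 6.53e-05), and Hsp26 (log2 change 0.82). The latter was not called without any one of replicates 1 and 2 at 0 h and replicate 1 at 12 h (adjusted p = 0.0685, 0.0501 and 0.109). The Hsp70 copies had changes between 0.32 and 0.56 and none was called, and the reads of these near-identical genes cannot be assigned with certainty. No ribosomal protein gene was called among 80 (limma, 21 at an unadjusted p under 0.05, and 0 with edgeR or DESeq2), with a median log2 change of 0.08 and a range from -0.15 to 0.27, and the sign of that median turned with median centring (-0.02). Among 31 aminoacyl-tRNA synthetases 8 rose (25.8%, against 10.2% of all tested genes), all of them without the mitochondrial suffix in their name. They were led by AsnRS from 1531 and 1367 to 3782 and 3143 (log2 change 1.25 ± 0.10 (SE), adjusted p = 2.36e-06) and AspRS from 1383 and 1326 to 3405 and 3001 (log2 change 1.24 ± 0.08 (SE), adjusted p = 9.08e-07).

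In the list of ATF4 and the unfolded protein response, 4 of 17 genes rose and none fell (23.5% called, against 10.2% of all tested genes, median 0.26). The kinase-like regulator trbl went from 326 and 359 to 1437 and 1289 (log2 change 1.99 ± 0.12 (SE), adjusted p = 4.23e-07). Nmdmc, a mitochondrial enzyme of folate metabolism, went from 662 and 549 to 1835 and 1738 (log2 change 1.56 ± 0.11 (SE), adjusted p = 1.06e-06), and the transcription factor Xrp1 from 11885 and 11322 to 26429 and 25163 (log2 change 1.15 ± 0.06 (SE), adjusted p = 1.22e-07). Thor, the fly 4E-BP that restrains cap-dependent translation, rose from 2490.2 and 2852 to 7954 and 7782 (log2 change 1.56 ± 0.07 (SE), adjusted p = 6.72e-08). For these 4 genes the groups did not overlap, as for 66.6% of all tested genes. The endoplasmic reticulum chaperones of the same list had values on the other side of zero and were not called, with log2 changes of -0.35 for Hsc70-3, -0.43 for Gp93 and -0.32 for Calr.

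Single genes of stress signalling and immunity changed. In the JNK pathway, which responds to oxidative damage, 4 of 14 genes rose (28.6%, against 10.2% of all tested genes). The list median was 0.12, with 8 members above 0 and 6 below. Among the 4 were the transcription factor Ets21C, from 46.5 and 50.2 to 238 and 171 (log2 change 2.04 ± 0.17 (SE), adjusted p = 4.04e-06), and the JNK phosphatase puc, from 1491 and 1558 to 2712 and 2607 (log2 change 0.80 ± 0.07 (SE), adjusted p = 5.43e-06). The stress gene Gadd45 and the matrix protease Mmp1 rose by 1.68 and 0.67 on the log2 scale, but with median-centred libraries Mmp1 was at 0.57, under the fold limit. The cytokine upd3, a ligand of the JAK-STAT receptor, had 1 read in the 0 h libraries and 27 reads at 12 h, a ratio of 44.0 (95% counting interval 7.26 to 1803). The stress peptide gene TotX fell, from 1554 and 1548 to 808 and 718 (log2 change -1.03 ± 0.21 (SE), adjusted p = 0.00345). Of the 10 tested members of that list 8 were not called (20% called, against 10.2% of all tested genes). Among the insulin and FOXO genes, ImpL2, a secreted protein that binds insulin-like peptides, rose from 2145 and 2356 to 7006 and 6340.0 (log2 change 1.57 ± 0.11 (SE), adjusted p = 1.33e-06), and the kinase Lk6 rose by 0.84. The insulin-like peptides Ilp5 and Ilp2, which the brain secretes, fell by 0.70 and 0.63 on the log2 scale.

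Of 13 tested antimicrobial peptide genes Drsl5 was called (7.69% of the list, against 10.2% of all tested genes), from 993 and 919 to 3129 and 3409.8 (log2 change 1.77 ± 0.08 (SE), adjusted p = 6.87e-08), although the median log2 change of the list was 0.95. The 12 h duplicates differed here. DptA (diptericin) had 751 normalized counts in replicate 1 and 25.6 in replicate 2 at 12 h, against 26.8 and 20.9 at 0 h. Def (defensin) had 239 and 23.3 at 12 h and 42.1 and 35.1 at 0 h, and CecC (cecropin) 102 and 0 and 3.19 and 1.67. In each of these replicate 1 was high and replicate 2 lay near or below the 0 h values, so the groups overlapped. Without replicate 2 at 12 h, 3 members were called. PGRP-SA, a receptor for bacterial cell wall, was the 1 called member of 10 peptidoglycan recognition proteins (10%, against 10.2% of all tested genes). Its log2 change was 0.89 ± 0.20 (SE), adjusted p = 0.00545, and without replicate 2 at 0 h it was not called (log2 change 0.68).

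**Figure D2:**
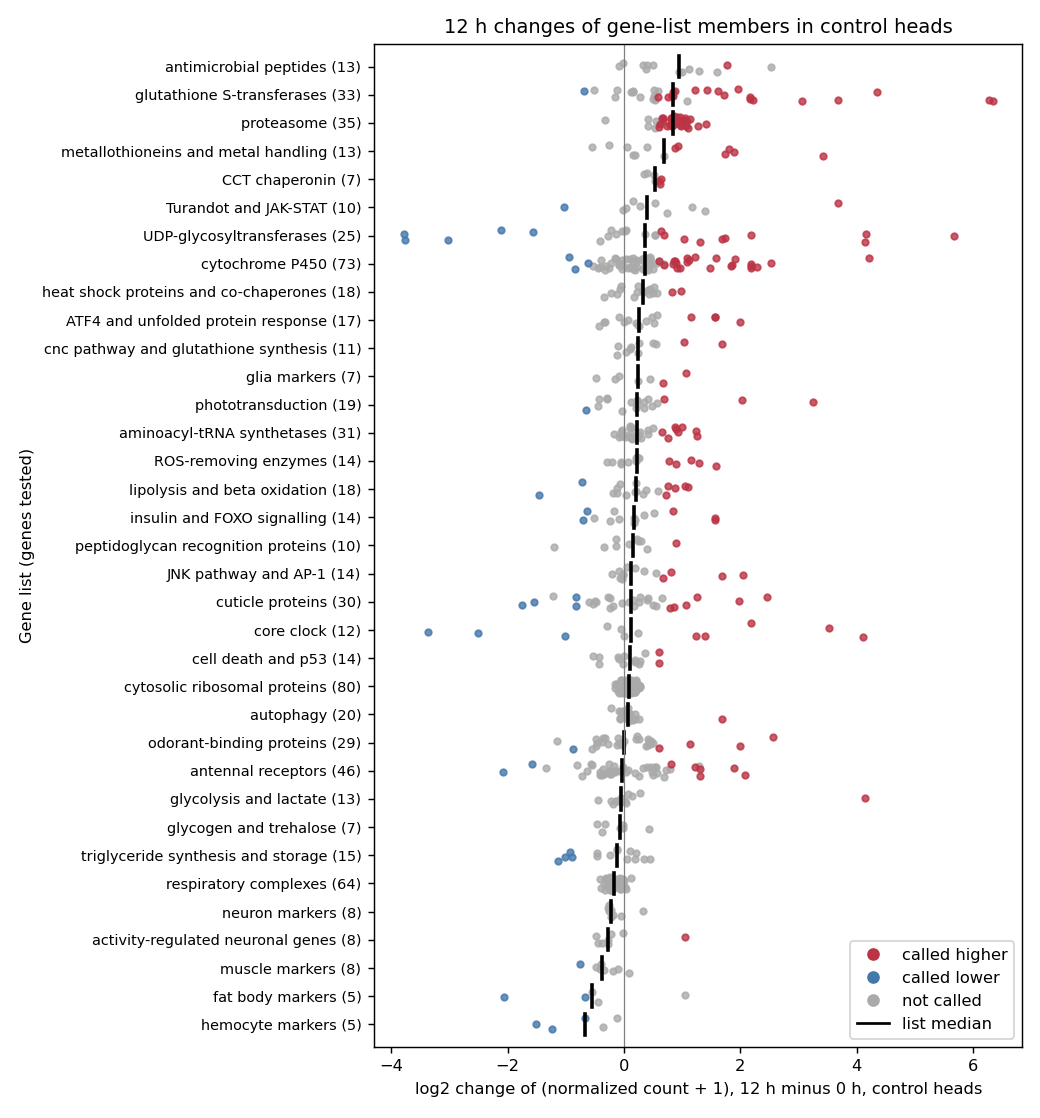
Change at 12 h against 0 h on the log2 scale (normalized count plus 1) for each tested member of the gene lists with 5 or more tested genes, sorted by list median; each point is 1 gene and the black bar is the median. Proteasome genes cluster around 0.84, ribosomal protein genes around 0.08, and the UDP-glycosyltransferases spread from -3.79 to 5.68.

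Of 13 tested genes of glycolysis and lactate, Ldh rose and the other 12 were not called (7.69% called, against 10.2% of all tested genes), with changes between -0.44 and 0.27, and the list median was -0.05. Another 3 listed names of glycolysis and 2 of glycogen metabolism, GlyP and GlyS, were not matched to an identifier and were not analysed here. None of 7 tested glycogen and trehalose genes was called (limma, 4 at an unadjusted p under 0.05, and 0 with edgeR or DESeq2), and Treh, the trehalase, had 9298 and 8817 at 0 h and 8985 and 8936 at 12 h. None of 64 nuclear genes of the respiratory chain and ATP synthase was called (limma, 43 at an unadjusted p under 0.05, and 0 with edgeR or DESeq2), and their changes had a median of -0.18 and ran from -0.41 to 0.12.

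Fat metabolism moved in both directions. Among 15 genes of triglyceride synthesis and storage 4 fell and none rose (26.7% called, against 10.2% of all tested genes). ACC, which makes malonyl-CoA in the first step of fatty acid synthesis, fell from 20166 and 17294 to 10133 and 10082 (log2 change -0.89 ± 0.06 (SE), adjusted p = 1.37e-06), and mdy, a diacylglycerol acyltransferase, from 875 and 813 to 419.9 and 417 (log2 change -1.01 ± 0.12 (SE), adjusted p = 6.21e-05). The sugar-responsive transcription factor sug fell by 1.14 and FASN2, a fatty acid synthase, by 0.93 on the log2 scale. Among 18 genes of lipolysis and beta oxidation 5 rose and 2 fell (38.9% called, against 10.2% of all tested genes). The names hll (heimdall) and Etf-QO of this list and FASN1 of the synthesis list were not matched to an identifier and were not analysed. The triglyceride lipase bmm (brummer) rose from 1580.4 and 1629 to 3517 and 3382 (log2 change 1.10 ± 0.07 (SE), adjusted p = 4.71e-07) and Lip4, a lipase, from 880.4 and 851 to 1858 and 1736 (log2 change 1.05 ± 0.10 (SE), adjusted p = 1.35e-05). The acyl-CoA synthetase bgm (bubblegum) fell from 3101 and 3091 to 1168 and 1088 (log2 change -1.46 ± 0.12 (SE), adjusted p = 4.93e-06). For the genes with printed counts the groups did not overlap, as for 66.6% of all tested genes. Markers of fat body were measured in the same libraries. The summed level of the 6 in the data was 98732 and 104088 at 0 h and 64227 and 66505 at 12 h, with most of it from apolpp. Of 5 tested, 2 were called lower (40% called, against 10.2% of all tested genes). They were apolpp, the main lipid carrier of the blood, and fit. Their log2 changes were -0.67 ± 0.13 (SE), adjusted p = 0.0026, and -2.06 ± 0.56 (SE), adjusted p = 0.0149. The other 3 were not called, with log2 changes of -0.55 for Lsp2, -0.45 for sxe2 and 1.05 for Yp1. Without replicate 2 at 0 h the change of apolpp was -0.58, under the fold limit, and fit was not called without any one of the 4 libraries (adjusted p from 0.0548 to 0.0734). The part of fat body in the changes of these lists was not tested.

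Genes for metal handling rose in 6 of 13 cases and fell in none (46.2% called, against 10.2% of all tested genes, median 0.69). The metallothionein MtnD went from 26.1 and 30.1 to 325 and 297 (log2 change 3.42 ± 0.31 (SE), adjusted p = 8.42e-06), and MtnA from 6919.8 and 6681 to 22101 and 23361 (log2 change 1.74 ± 0.09 (SE), adjusted p = 1.22e-07). MtnE and the multicopper oxidase Mco1 rose by 1.88 and 1.80 on the log2 scale. Both ferritin chains, which store iron, rose, Fer1HCH from 13685 and 13428 to 25462 and 25909 and Fer2LCH from 12331 and 13518 to 23934 and 23689 (log2 changes 0.92 and 0.88). MtnF, in contrast, had a change of -0.55 and was not called.

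The listed clock genes changed in both directions. Besides core genes the list holds to, whose transcript follows the clock and feeding, and Pdf. Of 12 tested, 5 rose and 3 fell, a share of 66.7% against 10.2% of all tested genes. The negative-limb gene tim (timeless) rose from 3639.7 and 4005 to 63503 and 68140.4 (log2 change 4.11 ± 0.07 (SE), adjusted p = 7.26e-12) and its partner per (period) from 1399 and 1292 to 5983 and 6306 (log2 change 2.19 ± 0.06 (SE), adjusted p = 9.72e-10). The 12 h duplicates of both genes were close together and lay well above the 0 h libraries. The repressor vri (vrille) rose from 1073 and 1107 to 12419.7 and 12647 (log2 change 3.52 ± 0.06 (SE), adjusted p = 7.26e-12), and Pdp1 and cwo, which also act in the feedback loops, rose by 1.39 and 1.25. On the other side Clk and to fell, as given above, and the blue-light receptor cry (cryptochrome) went from 4449 and 3831 to 2129.6 and 1957 (log2 change -1.02 ± 0.07 (SE), adjusted p = 1.34e-06). The partner of Clk, cyc (cycle), had 838 and 793 at 0 h and 804 and 825 at 12 h (log2 change -0.00 ± 0.05 (SE), adjusted p = 0.993), and the genes jet, dco and Pdf had changes of -0.05, 0.23 and -0.29 and were not called. Since these libraries were also taken at another time of day, the contributions of the hour and of paraquat to these changes cannot be told apart.

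**Figure D3:**
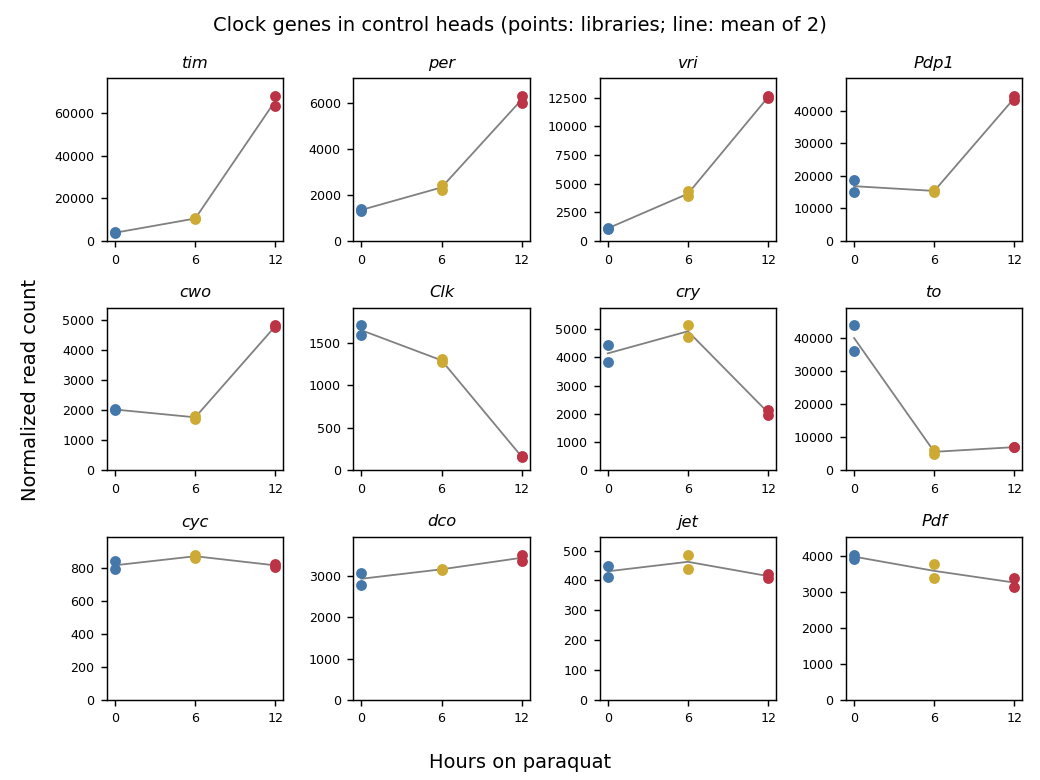
Normalized read count of 12 clock genes over the hours on paraquat in control heads; points are libraries (2 per time), lines join their means, and each panel has its own axis from 0. The tim panel climbs to 63503 and 68140 at 12 h, Clk drops to 154 and 165, and cyc stays between 793 and 879.

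Sensory and cell type transcripts were examined for changes in the makeup of the heads. Among 19 phototransduction genes 3 rose and 1 fell (21.1%, against 10.2% of all tested genes). Of these ninaC lost its call with median centring (0.58) and ninaA without replicate 1 at 0 h (-0.51), both under the fold limit. The opsins of the pale and yellow R8 photoreceptors moved most: Rh5 went from 1050.0 and 922 to 9303 and 9382 (log2 change 3.25 ± 0.14 (SE), adjusted p = 3.85e-08) and Rh6 from 5914 and 5283 to 22325 and 23297 (log2 change 2.03 ± 0.10 (SE), adjusted p = 8.09e-08). The opsins of the other photoreceptors, ninaE, Rh3 and Rh4, had changes of 0.12, 0.23 and 0.34 and were not called. Ir75a and Ir75b, antennal ionotropic receptors, fell from 459 and 404 to 105 and 97.8 and from 302 and 270.0 to 115 and 78.0 (log2 changes -2.07 and -1.58), while Orco, the olfactory co-receptor, rose by 1.31. Over 46 tested antennal genes 6 rose and 2 fell (17.4%, against 10.2% of all tested genes), and the summed level of all 127 antennal genes in the data, those below the filter included, was 5665 and 5327 at 0 h and 4922 and 5161 at 12 h. Of 29 odorant-binding proteins 4 rose and 1 fell (17.2%, against 10.2% of all tested genes), and Obp28a went from 98.2 and 70.2 to 487 and 499 (log2 change 2.56 ± 0.23 (SE), adjusted p = 7.47e-06).

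None of 8 neuronal genes was called (limma, 7 at an unadjusted p under 0.05, and 0 with edgeR or DESeq2), their median log2 change was -0.23, and their sum was 209252 and 227508 at 0 h and 195601 and 189479 at 12 h. Of 7 glial genes 2 rose (28.6%, against 10.2% of all tested genes). They were alrm, an astrocyte gene, from 892 and 977 to 1866 and 2052 (log2 change 1.07 ± 0.21 (SE), adjusted p = 0.00264), and Gs2, glutamine synthetase (log2 change 0.67). In contrast repo, the nuclear marker of glia, had a change of -0.15. With median-centred libraries Gs2 was at 0.56, under the fold limit. Arc1, an activity-regulated gene whose protein forms capsids, rose from 2744 and 2601 to 5604 and 5468 (log2 change 1.05 ± 0.08 (SE), adjusted p = 1.60e-06). It was the 1 called among 8 genes of that kind (12.5%, against 10.2% of all tested genes). The other 7 had log2 changes from -0.49 to -0.02, and the list median was -0.27. Of 5 blood cell markers 3 were called lower (60%, against 10.2% of all tested genes). Hml went from 1121 and 1012 to 360.1 and 382 (log2 change -1.52 ± 0.21 (SE), adjusted p = 1.77e-04), eater and NimC1 had changes of -1.24 and -0.67, and srp and PPO2 were not called. Leaving out 1 library ended the call of NimC1 (replicate 1 at 0 h or 12 h) and of eater (replicate 2 at 0 h or 12 h), with adjusted p from 0.0794 to 0.126. The sum of the 5 blood cell genes was 3706 and 3458 at 0 h and 2544 and 2461 at 12 h, and that of 8 muscle genes 160268 and 162949 and 132443 and 138489. Of these muscle genes 1, TpnC41C, was called lower (12.5%, against 10.2% of all tested genes). Its log2 change was -0.76 ± 0.23 (SE), adjusted p = 0.0278, and no fit without one of the 4 libraries kept the call (log2 changes from -0.86 to -0.66). The share of these marker changes in other results was not tested.

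To see how far the response was still moving, 12 h was set against 6 h, a comparison that uses the same 12 h libraries. Here 361 genes (3.43%) differed, 157 higher (1.49%) and 204 lower (1.94%) at 12 h. The count rested on single libraries: it was 238 without replicate 1 at 6 h and 232 without replicate 1 at 12 h, and the lower calls were 117 and 120 there and 130 without replicate 2 at 12 h. Proteasome genes had a median log2 change of 0.79 at 6 h and 0.84 at 12 h, both against the same 0 h libraries, and none of 35 was called between 6 h and 12 h (limma, 2 at an unadjusted p under 0.05, and 0 with edgeR or DESeq2). Some genes were higher again at 12 h. Thor had 5298 and 4776 at 6 h and 7954 and 7782 at 12 h (log2 change 0.65 ± 0.07 (SE), adjusted p = 2.74e-04), and trbl 847 and 684 and 1437 and 1289 (log2 change 0.84 ± 0.12 (SE), adjusted p = 0.00131). GstD2 (1605 and 1588 at 6 h, log2 change to 12 h 1.11), Ldh (1305 and 1328, 1.32) and ImpL2 (3742 and 3684, 0.84) were also higher at 12 h than at 6 h. Cat, at 8023 and 8727, had a change of 0.19 and was not called.

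The largest increases from 6 h to 12 h were dy, from 57.0 and 59.6 to 548 and 537 (log2 change 3.20 ± 0.16 (SE), adjusted p = 5.51e-07), and tim, from 10682 and 10327 to 63503 and 68140.4 (log2 change 2.65 ± 0.07 (SE), adjusted p = 1.93e-09), followed by CG13634, CG31954 and Ugt37E1 at 1.80, 1.76 and 1.72. The largest decreases included genes that were high at 6 h only. CG10357 had 19.1 and 8.36 at 0 h, 245 and 201 at 6 h and 17.9 and 17.5 at 12 h (log2 change -3.58 ± 0.41 (SE), adjusted p = 2.77e-04 from 6 h). Acsx2 had 93.7 and 68.6, 552 and 392 and 68.2 and 45.4 (log2 change -3.04 ± 0.23 (SE), adjusted p = 1.69e-05), and the odorant receptor Or47b 3.19 and 4.18, 34.5 and 26.1 and 2.39 and 0 (log2 change -4.07 ± 0.63 (SE), adjusted p = 0.00184). At 12 h these 3 genes were not called against 0 h, although without replicate 1 at 12 h Acsx2 and Or47b were called lower (log2 change -0.81 and -2.22). CG13634 lost its call against 6 h without any one of the 4 libraries (adjusted p from 0.104 to 0.183) and with DESeq2 (adjusted p = 0.0676), and Ugt37E1 without replicate 1 at 6 h or at 12 h (adjusted p = 0.078 and 0.104). The metallothioneins MtnD and MtnE were lower at 12 h than at 6 h, and MtnD stood at 618 and 816 at 6 h (log2 change -1.19 ± 0.31 (SE), adjusted p = 0.0328). Ugt302E1 and CG32371, by contrast, were near their 0 h level at 6 h and fell afterwards (log2 change -3.52 and -3.26). The call of CG32371 was lost when the fit held only the libraries of the comparison (adjusted p = 0.0557) and with DESeq2 (adjusted p = 0.0503).

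**Figure D4:**
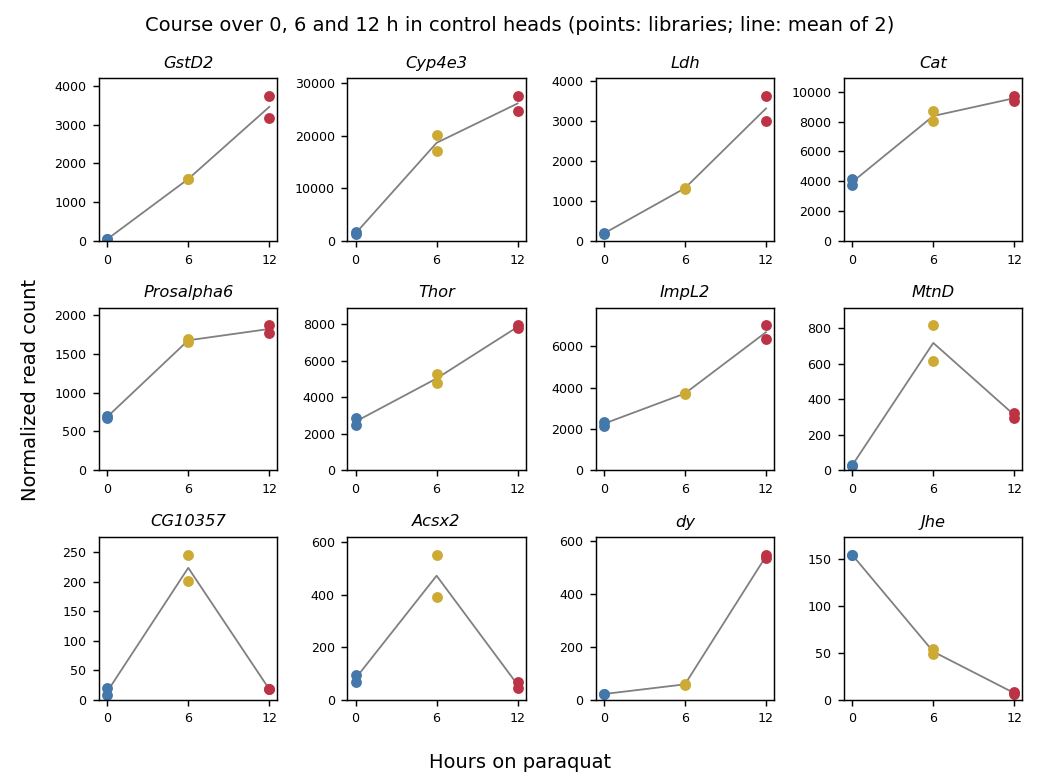
Normalized read count of 12 genes over the hours on paraquat in control heads; points are libraries (2 per time), lines join their means, and each panel has its own axis from 0. GstD2, Ldh, Thor and ImpL2 continue to climb after 6 h, Prosalpha6 and Cat level off, MtnD, CG10357 and Acsx2 are highest at 6 h, and Jhe falls at each step to 8.37 and 5.82.

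The control response was finally set against that of the libraries labelled G9a mutant, as a difference between the changes from 0 h to 12 h in each genotype. This difference passed the test for 1663 genes (15.8% of those tested), 765 (7.26%) with a higher and 898 (8.53%) with a lower change in the mutant libraries. In those libraries the G9a gene held 3553 and 3549 counts at 0 h and 3700.2 and 3633 at 12 h, above the controls (no test was run), and a count over the whole gene does not tell which part of it the reads came from. Among genes called in controls, the widest gap in one direction was for Drsl5, which rose in controls (log2 change 1.77) and went from 2694 and 3186 to 282 and 291 in the mutant libraries (difference of the changes -5.12 ± 0.12 (SE), adjusted p = 9.37e-10). Jhedup, Antdh, CG14495 and GstE4 also rose in controls and had differences between -4.98 and -4.71. In the other direction CG13215, Spn88Eb, which encodes a serpin, and Ets21C rose further in the mutant libraries, with differences of 5.01, 4.85 and 3.97, although CG13215 lost its call in controls without replicate 2 at 0 h or replicate 1 at 12 h (adjusted p = 0.0617 and 0.0635). Ets21C reached 2451 and 2747 there, against 238 and 171 in controls. NimC1, a receptor of phagocytic blood cells, fell in controls and rose in the mutant libraries, from 31.7 and 29.5 to 232 and 286 (difference 3.70), while Ugt302E1 fell in controls and changed by -0.09 in the mutant libraries (difference 3.70), where its 0 h level was lower (5.83 and 13.7 against 65.7 and 76.9).

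**Figure D5:**
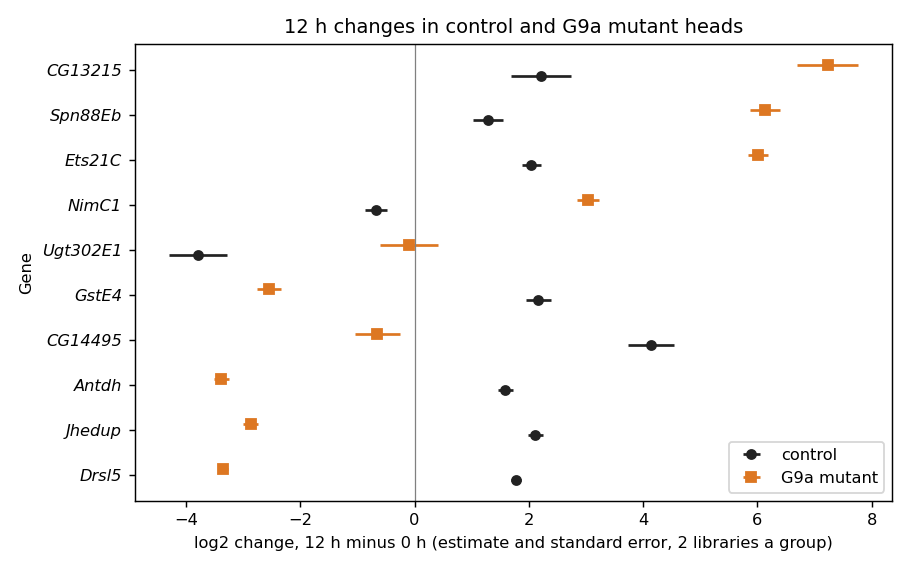
Change from 0 h to 12 h on the log2 scale in control libraries (circles) and libraries labelled G9a mutant (squares). Shown are 10 genes called in controls, the 5 in each direction whose changes differed most between the genotypes. Bars are standard errors, with 2 libraries in each group. Drsl5 lies at 1.77 in controls and -3.35 in mutants, and Ets21C at 2.04 and 6.01.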

How the data were processed

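The authors sequenced polyA-selected RNA of the 12 head pools (2 per genotype and time) as short single-end reads and named BWA, HTSeq, DESeq and genome build BDGP5 in their processing notes. The deposited values are counts per gene divided by a size factor (a normalized signal); all 188184 values are whole reads within 0.01 of a read once the value of 1 read in each library is divided out, and the library totals were recovered in this way. The authors' own fold changes and p-values were not used. Genes with a mean of at least 10 over 12 libraries (10530 of 15682) were compared on log2(normalized count + 1) with limma 3.58.1 in R 4.3.3 over 6 groups, and p-values were adjusted by Benjamini and Hochberg. A gene was called at 1.5-fold and an adjusted p of at most 0.05. All fold changes are on that log2(value + 1) scale, which understates low genes. On simulated data for 12 h against 0 h with 10530 genes, 94 of 100 genes changed 2-fold and 93 of 100 changed 3-fold were recovered. Alternatives used edgeR 4.0.16 and DESeq2 1.42.0 on the recovered reads. Duplicates are biological duplicates in the study, but the labels do not tell whether the pools came from separate cultures, so p-values measure the spread between these libraries, which differed by more than sampling noise. Which libraries shared a lane is not given in the sources used here.

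Members and the 38 gene lists were chosen with earlier results of these data known. Named genes were the 10 largest called changes in each direction without overlap of the 0 h and 12 h libraries, and up to 4 called members of each list (or its most abundant member). Added to these were the clock genes, the 5 largest calls in each direction between 12 h and 6 h and between genotypes, and G9a. Other members are named for their role or level, after their values were seen. Symbols were found for 15006 of the 15682 identifiers, and 24 list entries had none. Coordinates and promoter sequences are not used here, since the annotation at hand is of another build (BDGP6).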

Additional observations from a re-analysis of the deposited data

Results flagged for a closer look

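The changes from 0 h to 12 h in the 2 genotypes differed for 1663 genes by the test of the difference itself. The 5 largest in each direction among genes called in controls were singled out for that reason. On the log2 scale, as the change in the libraries labelled G9a mutant minus that in controls, the differences were 5.01 for CG13215, 4.85 for Spn88Eb, 3.97 for Ets21C, 3.70 for NimC1 and 3.70 for Ugt302E1, and -5.12 for Drsl5, -4.98 for Jhedup, -4.97 for Antdh, -4.79 for CG14495 and -4.71 for GstE4. At 0 h each gene with a negative difference had a higher mean in mutants than in controls, and each with a positive difference a lower one (no test was run). The difference itself contains the 0 h levels of both genotypes, so choosing its extremes favours this pattern. Antdh had 257 and 194 normalized counts in controls and 1039 and 932 in mutants, and GstE4 51.6 and 51.0 and 440.3 and 401. As means, Jhedup had 70.2 in controls and 848 in mutants, CG14495 4.42 and 42.6, and Drsl5 956 and 2940. Among the positive differences, NimC1 had 151 and 30.6 and Ets21C 48.3 and 39.3. Groups held 2 libraries each, too few to single out a library within a group.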

How the results depend on the processing

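The count of genes changed at 12 h against 0 h (1071) lay between 960 and 1111 under every alternative tried, including other pseudocounts, filters and scalings, thinning to the smallest library, edgeR (1110) and DESeq2 (1005). Leaving out single libraries gave 964 to 1076. Median centring moved the share of higher calls from 71.9% to 58.9%. The count for 12 h against 6 h (361) ranged from 232 to 372 without single libraries, its higher calls from 112 to 161 and its lower calls from 117 to 213, and the genotype count (1663) from 1509 to 1663. The labels do not pair the libraries by number. The correlation of deviations of same-numbered control libraries was 0.45 for 0 h and 12 h, -0.36 for 0 h and 6 h and -0.57 for 6 h and 12 h, and a replicate block gave 1064, 367 and 1657 genes for the 3 comparisons. With the 6 h numbers crossed, chosen after seeing the data, the block gave 1064, 349 and 1645. Of 3468 values of named genes under alternatives, 61 lost the call, 2 gained it and none reversed, and 75 of 840 list medians and 34 of 840 list counts moved, and the cause was not tested. The 12 h libraries hold fewer reads than those at 0 h, which limits what can be seen of genes that fell to a few reads.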

Other observations

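Transcripts of the mitochondrial genome formed a group that had not been listed and was picked out after its values were seen. Of 13 protein genes tested, 10 were lower and 1 was higher at 12 h (10.2% of all tested genes were called), with a median log2 change of -1.05. The subunit gene mt:ND5 of respiratory complex I had 11407 and 15473 normalized counts at 0 h and 4553 and 4141 at 12 h (log2 change -1.61), and mt:ND4 had 13755 and 18064 and 4934 and 4182 (log2 change -1.79). The cytochrome oxidase genes moved less, with mt:CoI at 160740.5 and 195032 and 133542 and 124647 (log2 change -0.46, not called). The large ribosomal RNA mt:lrRNA went from 1056339 and 1179182 to 599599.5 and 561324 (log2 change -0.94). The one protein gene that was higher was mt:ATPase8 (77.1 and 66.0 at 0 h and 115 and 156 at 12 h), which overlaps mt:ATPase6 (log2 change -1.03), so reads in the overlap cannot be assigned with certainty. At 6 h, against the same 0 h libraries, mt:ND5 had a log2 change of -1.53 and mt:ND4 of -1.74.

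Cuticle protein genes changed in both directions, with 6 of 30 higher and 4 lower (33.3% called, against 10.2% of all tested genes). Cpr11B went from 32.5 and 45.1 to 197 and 232 (log2 change 2.45 ± 0.22 (SE), adjusted p = 7.47e-06) and Cpr72Ec from 2356 and 2791 to 916 and 846 (log2 change -1.54 ± 0.10 (SE), adjusted p = 5.21e-07). Cpr11A, at -1.76, was not called without replicate 1 at 0 h or at 12 h (adjusted p = 0.0701 and 0.0704). Of 14 genes of cell death and p53 2 were called (14.3%, against 10.2% of all tested genes), Drice, an effector caspase, and agt, at 0.59 and 0.60 on the log2 scale. With median-centred libraries both were under the fold limit (0.49 and 0.50). None of the 14 was called without replicate 2 at 0 h, 1 without replicate 1 at 12 h and 4 without replicate 1 at 0 h.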
